A study of Mus musculus with 22 samples.

Results

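The 10 genes described here encode the transcription factor NRF2 (Nfe2l2), its inhibitor KEAP1 (Keap1) and enzymes and a transporter that NRF2 is known to induce (Nqo1, Gclc, Gclm, Txnrd1, Srxn1, Slc7a11, Gsr and Prdx1). They were chosen as a list of symbols, each matched to 1 Ensembl gene, and all 10 were among the 31116 genes shared by both count tables of the series and passed the filter on low counts in both cell types. The series holds RNA sequencing of 22 samples sorted from lungs of C57BL/6 mice that carry the SP-C I73T mutation, an allele of the surfactant protein C gene, which alveolar type 2 epithelial cells express. Tamoxifen activates an Flp-O recombinase that removes a neomycin cassette and raises expression of the mutant protein, and cells were sorted at 3 d and 14 d after it. SigF+CD11b- alveolar macrophages came from control mice (n = 4) and from tamoxifen-treated mice at 3 d (n = 3) and 14 d (n = 3), and Ly6Chi monocytes came from the same kinds of group with n = 4 each.

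The control samples carry the mutant allele too. Their labels call them untreated, while the study's methods describe controls as adult mutant mice of both sexes given oil, or given tamoxifen without the recombinase, and for the sequenced monocytes the study names controls given oil, so an effect of tamoxifen or of recombination cannot be told apart from that of the mutant protein. The labels do not say whether samples are separate animals, and the p-values then measure the spread between these samples. Total counts ran from 14437070 to 17074863 per sample in control macrophages, 10692871 to 15410838 at 3 d and 4610720 to 6838893 at 14 d, and from 15451460 to 28789639 in the 12 monocyte samples. The 14 d groups also differed from control in sex. Xist, which is expressed from the inactive X chromosome, was at 1.35 to 4.03 CPM in 14 d macrophages against 209 to 304 in control and at 0.0464 to 0.242 CPM in 14 d monocytes against 51.6 to 173, and all 4 Y-linked genes tested were higher at 14 d in both cell types, so sex and time cannot be told apart there. Siglecf, the gene of the sorted surface marker SigF, was at 231 to 348 CPM in control macrophages and 3.55 to 29.2 in control monocytes, and Ly6c2 was at 1.51 to 3.34 and 2569.5 to 3281 CPM. At 14 d, 7 of 10 alveolar macrophage markers fell in the macrophage sort, and the summed level of 9 of them (without Chil3, a chitinase-like gene whose counts exceed those of the others together) was 2363 to 3181 CPM against 6929.6 to 8099 in control.

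NRF2 is held in the cytoplasm by KEAP1, which presents it for degradation. When oxidants or electrophiles modify KEAP1, NRF2 accumulates, enters the nucleus and binds, as a partner of small MAF proteins, to antioxidant response elements near its target genes. The targets make glutathione (Gclc and Gclm encode the catalytic and modifier subunits of glutamate-cysteine ligase, and Slc7a11 encodes the cystine importer xCT), regenerate it (Gsr, glutathione reductase), run the thioredoxin and peroxiredoxin cycle (Txnrd1, Prdx1 and Srxn1, which repairs over-oxidized peroxiredoxins) and detoxify quinones (Nqo1). NRF2 activity is set mainly at the protein level, so the transcript of Nfe2l2 is not a measure of it. The genes were located in the GRCm38 annotation (GENCODE M21), with Gclm at chr3:122245557-122270732 (plus strand), Slc7a11 at chr3:49892526-50443614 (minus strand), Srxn1 at chr2:152105516-152111376 (plus strand), Nfe2l2 at chr2:75675513-75704641 (minus strand), Txnrd1 at chr10:82833951-82897712 (plus strand) and Prdx1 at chr4:116685544-116700822 (plus strand), and all 10 are protein coding.

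In control mice the macrophages carried more Gclc, Gclm, Txnrd1 and Srxn1 transcript than the monocytes did, and less Nfe2l2. Levels are given in CPM, read counts divided by the scaled total of their sample, on the scale of each cell type's own fit. Comparisons between cell types come from 1 fit over all 22 samples, in which cell type and count table cannot be told apart. The levels in this paragraph are on the common scale of that fit. A gene is said to be called, to rise or to fall where its adjusted p (q, edgeR) was under 0.05 and its fold change over 1.5. Of the 10 genes, 5 were called between control macrophages and control monocytes, where 44.2% of the 26692 genes tested were called (24.5% higher and 19.7% lower). Gclm was at 32.3, 37.3, 39.0 and 40.9 CPM in the control macrophages and 2.11, 2.68, 3.71 and 3.81 CPM in the control monocytes (log2 fold change 3.60 ± 0.33 (SE), q = 1.43e-09). Every macrophage sample was above every monocyte sample. Gclc was at 26.9, 28.8, 29.3 and 27.6 CPM against 3.90, 3.54, 7.83 and 10.6 CPM (log2 fold change 2.12 ± 0.29 (SE), q = 7.55e-07), again without overlap. Txnrd1 was higher by 1.2 on the log2 scale (q = 0.000824) and Srxn1 by 1.18 (q = 0.00400). Nfe2l2 was lower in macrophages, at 171, 166, 152 and 162 CPM against 335, 343, 235 and 340 CPM (log2 fold change -0.94 ± 0.15 (SE), q = 9.64e-06). Keap1, Nqo1, Slc7a11, Gsr and Prdx1 were not called, with log2 differences from -0.66 to 0.28. The median of all genes was 0.05 in this contrast. Gclm, Gclc, Txnrd1 and Srxn1 were called under every alternative, Nfe2l2 was not called under library size scaling (-0.51), and Slc7a11 (q = 0.0537) was called lower in 7 of 32. These were the upper quartile (-0.96, q = 0.00225), DESeq2 (-0.67, q = 0.0442) and the fits without control macrophage replicate 2 (-0.89), control monocyte replicate 1 or 2 (-0.77 and -0.75), 3 d monocyte replicate 3 or 14 d monocyte replicate 1 (-0.66 in both).

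Per exonic length, Prdx1 was the most abundant of the 10 in both cell types, at 375 ± 27.1 CPM per kb (SD, n = 4) in control macrophages and 338 ± 12.8 CPM per kb (SD, n = 4) in control monocytes. Gsr followed at 139 ± 10.8 CPM per kb (SD, n = 4) and 107 ± 53.6 CPM per kb (SD, n = 4), and Nfe2l2 came next in both. These values are on each cell type's own scale and order genes within a cell type, not between cell types. Nqo1 was the least abundant, at 0.648 ± 0.357 CPM per kb (SD, n = 4) and 0.407 ± 0.117 CPM per kb (SD, n = 4), and rested on 9 to 24 and 9 to 21 counts per sample, so it is the least precise of the set. The 2 subunits of glutamate-cysteine ligase stood differently to each other in the cell types. The level of Gclm per kb was 0.720 to 0.887 times that of Gclc in control macrophages and 0.216 to 0.454 times in control monocytes, and in monocytes it was 0.549 to 1.18 at 3 d and 0.489 to 1.257 at 14 d. Part of the exons of Gclm overlaps other annotated genes (296 bases with Gm17494 on the opposite strand and 244 with Gm6061 on the same strand), as do 510 bases of Keap1 with Gm16754 on the opposite strand, and the use of strand in counting is not given in the sources used here.

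**Figure D1:**
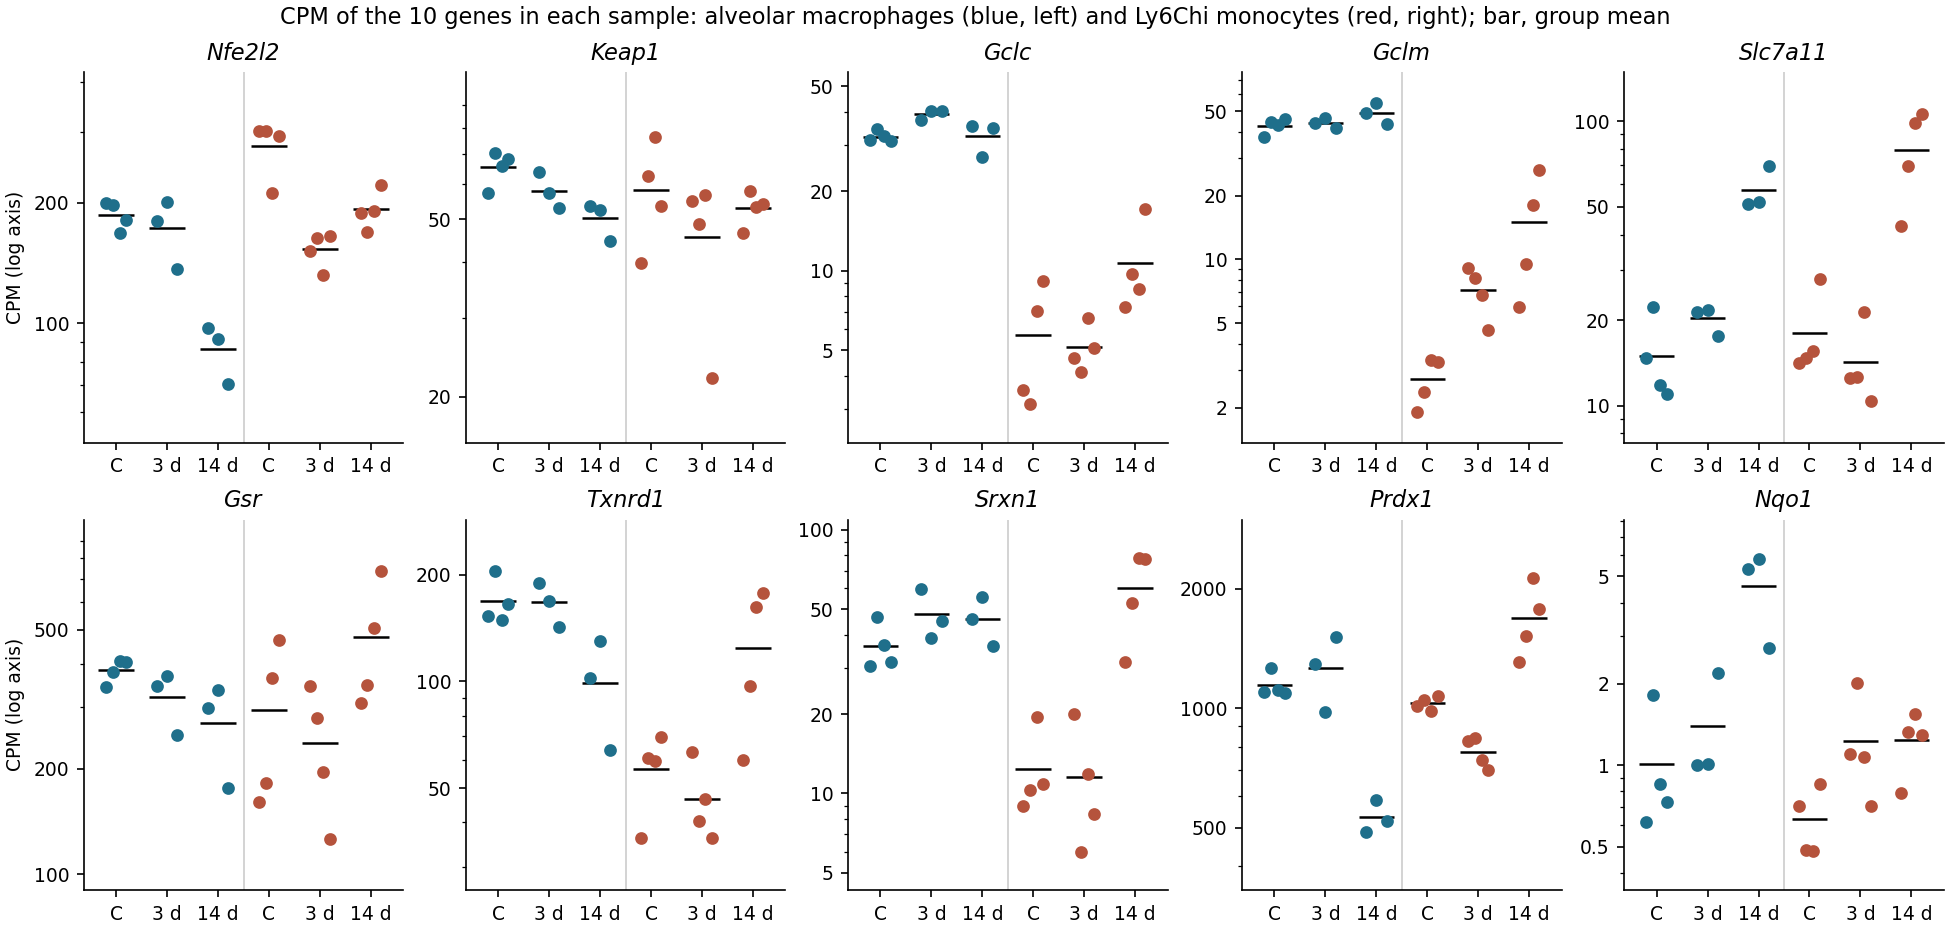
CPM of each of the 10 genes in each of the 22 samples, on a log axis, with control (C), 3 d and 14 d alveolar macrophages in blue and Ly6Chi monocytes in red (1 point per sample, bar at the group mean). Values are on the scale of each cell type's own fit, so heights compare within a cell type. Gclm, Slc7a11, Srxn1 and Prdx1 lie higher in all 14 d monocyte samples than in any control monocyte sample. Nfe2l2, Prdx1, Txnrd1, Keap1 and Gsr lie lower in all 14 d macrophage samples than in any control macrophage sample, Keap1 and Gsr without being called.

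Gclm, Slc7a11, Srxn1, Txnrd1 and Prdx1, which serve glutathione synthesis and the thioredoxin and peroxiredoxin cycle, rose in Ly6Chi monocytes at 14 d. Of the 10 genes, 5 were called higher and 0 lower (edgeR), where 8.56% of the 22353 genes tested were called (3.22% higher and 5.34% lower). DESeq2 also called 5, and at an unadjusted p under 0.05 there were 6 higher and 1 lower. The 10 genes had a median log2 fold change of 0.93, and all genes tested one of 0.09. Gclm, the modifier subunit, was at 1.91, 2.37, 3.34 and 3.30 CPM in control and 5.98, 9.47, 17.99 and 26.5 CPM at 14 d (log2 fold change 2.46 ± 0.41 (SE), q = 0.00148). The lowest 14 d sample was above the highest control. Slc7a11, the cystine importer, went from 14.1, 14.7, 15.6 and 27.8 CPM to 42.9, 69.4, 98.4 and 106 CPM (log2 fold change 2.13 ± 0.32 (SE), q = 0.000654), also without overlap. Srxn1, sulfiredoxin, went from 8.99, 10.3, 19.5 and 10.9 CPM to 31.5, 52.7, 78.2 and 77.8 CPM (log2 fold change 2.27 ± 0.39 (SE), q = 0.00179). The groups did not overlap for Srxn1 either. Gclm, Slc7a11 and Srxn1 were called under every alternative run, also with any 1 of the samples left out.

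Txnrd1, the cytosolic thioredoxin reductase, was at 36.05, 60.8, 59.6 and 69.5 CPM in control monocytes and 60.0, 97.1, 162 and 178 CPM at 14 d (log2 fold change 1.14 ± 0.31 (SE), q = 0.0326), and the groups overlapped through the 14 d sample of replicate 1. The call on Txnrd1 was lost with the replicate number as a block (log2 fold change 1.09, q = 0.0609), with no filter on low counts (q = 0.0511), and without control replicate 1, 2 or 3 or 14 d replicate 3 or 4 (q from 0.0674 to 0.121). Prdx1, peroxiredoxin 1, had the smallest called change. It was at 1013, 1047, 986 and 1074 CPM in control and 1308, 1525, 2135 and 1776 CPM at 14 d (log2 fold change 0.71 ± 0.14 (SE), q = 0.00522), with no overlap. Without 14 d replicate 3 the fold of Prdx1 was under 1.5 (log2 fold change 0.57, q = 0.0392). Among the 4 monocyte samples of 14 d, replicate 1 was the lowest for 9 of the 10 genes and replicate 4 the highest for 6.

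The remaining 5 genes were not called at 14 d in monocytes. Gclc, the catalytic subunit, was at 3.52, 3.12, 7.04 and 9.15 CPM in control and 7.33, 9.71, 8.57 and 17.2 CPM at 14 d (log2 fold change 0.90, q = 0.150), and the ranges overlapped. Gsr ran from 161 to 469 CPM in control, and from 309.5 to 739 at 14 d (log2 fold change 0.69 ± 0.40 (SE), q = 0.337). Nqo1 was at 0.704, 0.484, 0.482 and 0.854 CPM and 0.788, 1.33, 1.54 and 1.29 CPM (log2 fold change 0.96, q = 0.238), from 17 to 32 counts per 14 d sample. Nfe2l2 was at 188, 169, 191 and 222 CPM against 302, 302, 211 and 293 in control, with q under 0.05 but a fold under 1.5 (log2 fold change -0.53 ± 0.15 (SE), q = 0.0363), and Keap1 had a log2 fold change of -0.13 (q = 0.814).

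Markers of other cell types were measured in the same samples, and fewer cells of a type and less RNA per cell cannot be told apart in bulk samples. The summed alveolar macrophage markers without Chil3 were at 408 to 769.8 CPM in 14 d monocytes, not above the 566 to 1510.2 CPM of control monocytes, and 1 of the 10 rose and 1 fell. Siglecf was at 2.13 to 5.03 CPM against 3.55 to 29.2. Chil3 was at 15429.9 to 20582 CPM at 14 d against 7022 to 14903 in control. Of 8 monocyte markers 1 rose and 3 fell, with Ly6c2 at 1314 to 1789.8 CPM against 2569.5 to 3281. Of 8 neutrophil markers 1 rose, and their sum was 669.9 to 1410.0 CPM against 203 to 291. T and NK cell markers moved the other way, with 4 of 7 lower and a sum of 15.3 to 32.5 CPM against 256 to 1014, as did B cell markers (4 of 4 lower, 23.4 to 48.1 against 73.6 to 106 CPM). Of 7 epithelial markers 1 rose and 2 fell, and of 4 endothelial markers 1 fell. The part of these cells and of sex in the changes of the 10 genes was not tested.

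Promoters were searched for the core of the antioxidant response element, TGACNNNGC on either strand, in windows of 250 bases before to 50 bases after each RefSeq start (GRCm38.p6). Windows were at hand for 8 of the 10 genes, Gclc and Gsr being without one, and Txnrd1 has 3 of them. The core was in a window of 5 genes (Nfe2l2, Gclm, Txnrd1, Srxn1 and Prdx1), and 14.0% of the 27025 genes with windows of that length hold it. The sites are shown because Gclm, Txnrd1, Srxn1 and Prdx1 moved together in 14 d monocytes, as did Slc7a11, whose window holds no core. Each run is on the strand of the gene, with the core in capitals. A match describes the letters and was not tested as a site.
Nfe2l2, chr2:75704885-75704913, strand −: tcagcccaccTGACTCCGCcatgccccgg
Gclm, chr3:122245413-122245441, strand +: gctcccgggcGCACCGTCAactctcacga
Txnrd1, chr10:82859104-82859132, strand +: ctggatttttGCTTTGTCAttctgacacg
Srxn1, chr2:152105542-152105570, strand +: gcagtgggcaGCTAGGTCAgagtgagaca
Prdx1, chr4:116685456-116685484, strand +: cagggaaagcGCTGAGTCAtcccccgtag

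The core of Prdx1 reads TGACTCAGC on the other strand, the form that also holds an AP-1 site (TGACTCA), which 0.503% of genes hold in such a window. It begins 133 bases before the start. TGACTCA alone is in the windows of 5.95% of genes, and it overlaps TGACNNNGC only where GC follows. In the Txnrd1 gene the site lies before the second of the 3 starts. The core of Srxn1 starts 29 bases after its start, and its upstream stretch holds TGACTCA at 2 other places. The upstream stretches of Srxn1 and Prdx1 follow, up to the annotated gene, with both motifs in capitals.
Srxn1, chr2:152105274-152105515, strand +: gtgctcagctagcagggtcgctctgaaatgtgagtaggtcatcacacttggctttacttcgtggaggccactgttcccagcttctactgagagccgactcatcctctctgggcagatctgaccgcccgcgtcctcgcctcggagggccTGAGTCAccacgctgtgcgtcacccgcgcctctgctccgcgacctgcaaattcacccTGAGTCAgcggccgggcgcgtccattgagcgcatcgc
Prdx1, chr4:116685349-116685543, strand +: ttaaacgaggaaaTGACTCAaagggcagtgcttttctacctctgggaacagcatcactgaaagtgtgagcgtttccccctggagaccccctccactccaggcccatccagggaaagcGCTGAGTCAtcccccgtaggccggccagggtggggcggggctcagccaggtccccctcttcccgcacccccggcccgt
No core was found in the windows of Keap1, Nqo1 and Slc7a11, which says only that these letters are absent from those 300 bases.

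At 3 d the monocytes differed from control in 2 of the 10 genes, Gclm upward and Nfe2l2 downward, in a contrast where 51.2% of all genes tested were called (36.8% higher and 14.4% lower). Gclm was at 9.06, 8.17, 6.83 and 4.66 CPM (log2 fold change 1.39 ± 0.40 (SE), q = 0.0103), every sample above the highest control, and it was called under every alternative run. Nfe2l2 was at 151, 163, 132 and 166 CPM (log2 fold change -0.86 ± 0.15 (SE), q = 0.000831), every sample below the lowest control. The call on Nfe2l2 was lost under the 3 other scalings and with the filter at a mean log2 CPM above 1 (-0.47). Its log2 fold change was -0.37 scaled to library size (q = 0.0481) and -0.34 with scaling factors from abundant genes alone (q = 0.0545). The 3 d monocyte samples had counts in 40119 to 41134 genes against 24775 to 30865 in control, and the median log2 fold change of all genes was 0.22 with TMM over all genes and between 0.62 and 0.74 with the 3 others. Under each of those 3, 2 of the 10 genes were called higher and 0 lower, the second being Nqo1 (log2 fold change 1.34 to 1.46, q from 0.0185 to 0.0320), which DESeq2 also called (1.08, q = 0.0322) and which stood at 0.95 with TMM over all genes (q = 0.0908). Slc7a11, Srxn1 and Txnrd1 had log2 fold changes of -0.35, -0.10 and -0.28 at 3 d (q = 0.358, 0.835 and 0.451), and Prdx1 was at 828, 841, 742 and 699.7 CPM, with a log2 fold change of -0.40 and a fold under 1.5 (q = 0.0261). Markers of other cells moved with this contrast. Of the alveolar macrophage markers 6 of 10 were lower and 0 higher (summed without Chil3, 194 to 409 CPM against 566 to 1510.2 in control), as were 5 of 7 T and NK cell markers (14.2 to 198 against 256 to 1014 CPM) and 4 of 4 B cell markers (27.9 to 44.7 against 73.6 to 106 CPM). Higher were 3 of 8 neutrophil markers (226 to 1365 against 203 to 291 CPM), 2 of 4 endothelial (22.5 to 27.6 against 13.1 to 26.8 CPM) and 2 of 4 fibroblast markers (11.1 to 11.8 against 1.67 to 7.44 CPM). Of 7 epithelial markers 2 were higher and 2 lower, of 8 monocyte markers 1 was higher and 2 lower, and of Xist and the 4 Y-linked genes Kdm5d was higher and Xist lower. Their part was not tested.

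From 3 d to 14 d, 7 of the 10 genes rose in monocytes and 0 fell, with 46.5% of all genes called, 12% higher and 34.5% lower (DESeq2 called 7, and 8 were higher and 0 lower at an unadjusted p under 0.05). The 14 d samples are shared with the comparison against control. Slc7a11 (log2 fold change 2.48 ± 0.32 (SE), q = 0.000407), Srxn1 (log2 fold change 2.37 ± 0.39 (SE), q = 0.00110), Txnrd1 (log2 fold change 1.42 ± 0.31 (SE), q = 0.00345) and Prdx1 (log2 fold change 1.12 ± 0.14 (SE), q = 0.000387) were called under every alternative. Srxn1 was at 20.03, 6.02, 11.9 and 8.33 CPM at 3 d, and each of these samples was below each 14 d sample. Slc7a11 was at 12.5, 12.7, 21.4 and 10.4 CPM and Txnrd1 at 63.3, 40.3, 46.5 and 36.04 CPM at 3 d, the latter overlapping the 14 d group through 1 sample of each. Gclm (log2 fold change 1.06, q = 0.0356), Gclc (1.06, q = 0.0259) and Gsr (1.01, q = 0.0497) lost their calls under all 3 other scalings, with log2 fold changes between 0.53 and 0.68. Without 14 d replicate 4 the 3 genes were at 0.58, 0.69 and 0.67, and none was called. Over 22 alternatives Gclm was called in 10, Gclc in 15 and Gsr in 9, and these calls were also lost without other single samples, Gclm without any 1 of the 3 d samples or 14 d replicate 3, Gclc without 3 d replicate 1 or 2, and Gsr without control replicate 3, 3 d replicate 2, 3 or 4, or 14 d replicate 3. Markers of other cells moved here too. Of the alveolar macrophage markers 4 of 10 were higher and 0 lower (summed without Chil3, 408 to 769.8 CPM at 14 d against 194 to 409 at 3 d), and of the neutrophil markers 2 of 8 were higher (669.9 to 1410.0 against 226 to 1365 CPM). Lower were 3 of 4 endothelial (13.1 to 16.9 against 22.5 to 27.6 CPM) and 2 of 4 fibroblast markers (2.69 to 6.89 against 11.1 to 11.8 CPM). Of 8 monocyte markers 3 were higher and 2 lower, of 7 epithelial markers 2 were higher and 2 lower, and all 4 Y-linked genes were higher and Xist lower. Their part was not tested.

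**Figure D2:**
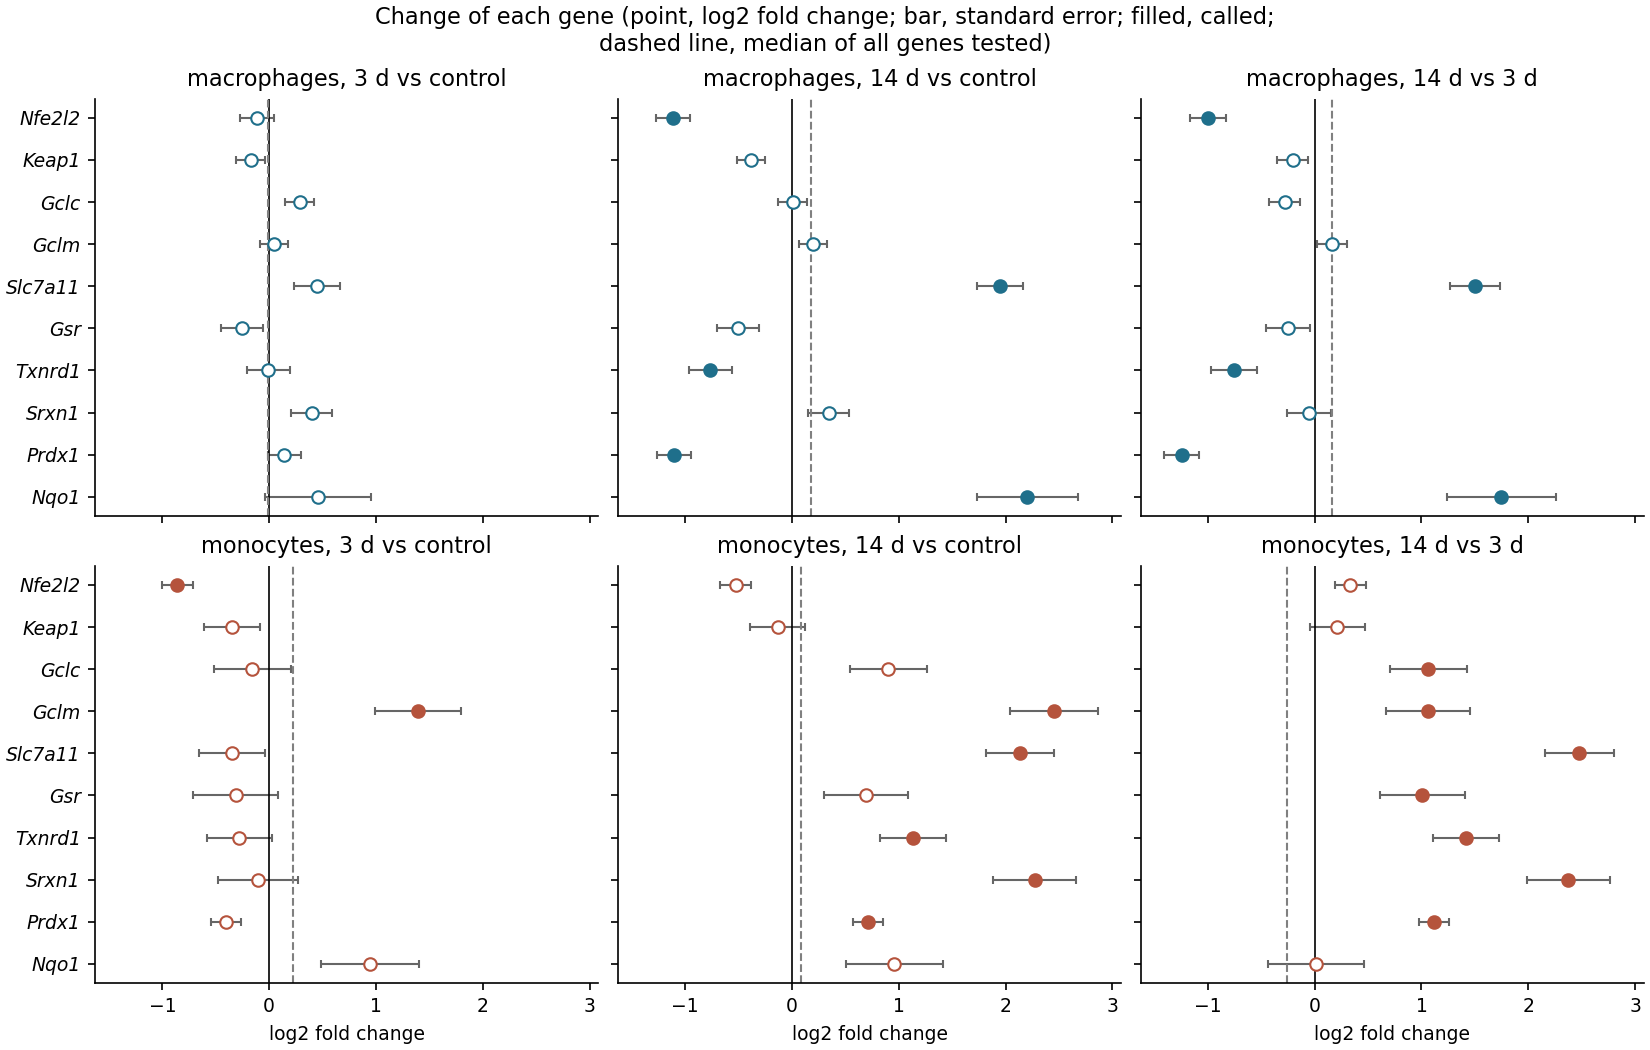
Log2 fold change of each gene (horizontal axis) in the 3 contrasts of alveolar macrophages (top) and of monocytes (bottom), with standard errors as bars, filled points where called and a dashed line at the median of all genes tested. In 14 d monocytes Gclm, Slc7a11 and Srxn1 lie above 2, while in 14 d macrophages only Nqo1 and Slc7a11 are called higher and Nfe2l2, Txnrd1 and Prdx1 are called lower.

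In alveolar macrophages at 3 d no gene of the set was called, nor were any of the 59 other genes of the pathway, in a contrast where 1.27% of 20944 genes were called by edgeR (1.05% higher and 0.224% lower). DESeq2 called 0 of the 10 and 4 of the 59, and 1 of the 10 (higher) and 13 of the 59 had an unadjusted p under 0.05. The log2 fold changes ran from -0.25 (Gsr) to 0.46 (Nqo1). Gclc was at 37.4, 40.4 and 40.4 CPM, above all 4 control samples (31.3, 34.4, 32.4 and 31.0 CPM), with a log2 fold change of 0.29 (q = 0.354). The ranges of the other 9 genes overlapped those of control, and the share of all genes without overlap was not counted. Among 7 epithelial markers 1 was higher and 1 lower, with a sum of 647 to 967 CPM against 241 to 348 in control. The B cell markers summed to 166 to 529 against 54.2 to 142 CPM, with 0 of 4 called. Higher were 1 of 4 endothelial markers and 1 of 6 neutrophil markers tested, and 0 of 10 alveolar macrophage markers were called. The part of these markers' cells was not tested.

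At 14 d the macrophages split. Slc7a11 and Nqo1 rose, Nfe2l2, Prdx1 and Txnrd1 fell, and Gclc, Gclm and Srxn1 were not called. The 5 calls (2 higher, 3 lower) stand against 62.3% of all genes called in this contrast (39.4% higher and 22.9% lower). The 14 d macrophage samples had counts in 27699 to 30627 genes against 21951 to 27616 in control, although their total counts were lower. The part of this in the rises of genes of low count was not tested. Slc7a11 was at 14.7, 22.2, 11.8 and 10.95 CPM in control, 21.4, 21.7 and 17.6 at 3 d and 51.3, 51.9 and 69.5 at 14 d (log2 fold change 1.95 ± 0.22 (SE), q = 4.54e-06 against control), with the 14 d samples above all others. Nqo1 was at 0.616, 1.82, 0.852 and 0.730 CPM in control, 1.00, 1.01 and 2.19 at 3 d and 5.33, 5.80 and 2.71 at 14 d (log2 fold change 2.20 ± 0.47 (SE), q = 0.000801). Its 14 d values rest on 16 to 46 counts per sample. Slc7a11 and Nqo1 were called higher under every alternative that tested them, and the filter at a mean log2 CPM above 1 left Nqo1 out.

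Nfe2l2 was at 199, 198, 168 and 181 CPM in control macrophages, 179.6, 201 and 136 at 3 d and 97.4, 91.2 and 70.3 at 14 d (log2 fold change -1.11 ± 0.16 (SE), q = 4.11e-05), without overlap between 14 d and the other groups. Prdx1 was at 1099, 1266, 1114 and 1092 CPM, 1295, 979 and 1508 and 487, 589 and 519 CPM (log2 fold change -1.10 ± 0.16 (SE), q = 3.86e-05), also without overlap. Txnrd1 was at 153, 205, 149 and 165 CPM, 190.0, 169 and 143 and 102, 130.4 and 63.9 CPM (log2 fold change -0.76 ± 0.20 (SE), q = 0.00359), with each 14 d sample below each sample of the other groups. Other scalings made these falls smaller, and Txnrd1 was called under none of the 3, nor with the filter at a mean log2 CPM above 1 (-0.41, q = 0.0928) or after thinning all samples to the lowest total (-0.58, a fold under 1.5). Scaled to library size 4 of the 10 were called higher and 2 lower, by the upper quartile 3 higher and 2 lower, and with factors from abundant genes alone 5 higher and 0 lower. With the last, Nfe2l2 was at -0.55, Prdx1 at -0.54 and Txnrd1 at -0.22 on the log2 scale, and none of the 3 had a fold over 1.5, while Gclm (0.77), Srxn1 (0.90) and Gclc (0.59) were then called higher. The median of all genes moved by 0.35 to 0.57 between scalings (log2). A change of scaling moves each gene about as much as that median, so a gene's place against the median cannot tell which scaling holds. Keap1 (log2 fold change -0.38, q = 0.0187) and Gsr (-0.50, q = 0.0315) had q under 0.05 with a fold under 1.5. Gsr was called lower with no filter on low counts, without any 1 of the 3 d samples or without 14 d replicate 1 or 2 (-0.72 to -0.62).

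Against the 3 d samples the same 5 genes were called at 14 d in macrophages, where 56.4% of all genes were called (36.3% higher and 20% lower), and the other scalings gave 2 or 3 higher and 1 or 2 lower. Slc7a11 (1.5) and Nqo1 (1.75) were higher and Prdx1 (-1.25), Nfe2l2 (-1.0) and Txnrd1 (-0.76) lower on the log2 scale. The call on Nqo1 was lost without 3 d replicate 1 or 2 (q = 0.0529 and 0.0534). That on Txnrd1 was lost without 14 d replicate 3 (log2 fold change -0.58) and under each other scaling (from -0.46 to -0.28) and the stricter filter (-0.43), and that on Nfe2l2 under library size scaling (-0.58) and with factors from abundant genes alone (-0.51). Markers of other cells moved with the 14 d macrophage group against control, where 39.4% of all genes were called higher and 22.9% lower. Besides the fall of the alveolar macrophage markers, 4 of 4 eosinophil markers rose (summed 28.4 to 107 CPM against 0.664 to 1.90 in control), as did 4 of 4 fibroblast markers (42.2 to 53.8 against 3.88 to 7.21 CPM). Of 6 neutrophil markers tested 5 rose and 1 fell (378 to 1521 against 68.7 to 214 CPM). Also higher were 4 of 8 monocyte markers (487 to 591 against 338 to 402 CPM) and 3 of 4 endothelial markers (31.6 to 42.2 against 7.75 to 16.6 CPM). Of 7 epithelial markers 2 rose and 4 fell (174 to 259.7 against 241 to 348 CPM), and of 6 T and NK cell markers tested 1 rose and 1 fell. Itgam, which encodes CD11b, was at 54.9 to 102 CPM against 0.730 to 2.66, and Ly6c2 was at 1.18 to 6.19 CPM. Against 3 d, 4 of 4 B cell markers fell (88.5 to 163 against 166 to 529 CPM) and 0 of 4 endothelial markers were called. Of the neutrophil markers 4 rose and 1 fell, and of the 8 monocyte markers 3 rose and 1 fell. All 4 eosinophil and 3 of 4 fibroblast markers rose, and 6 of 10 alveolar macrophage markers fell. Their part, and that of the sex difference, in the changes of the 10 genes was not tested.

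The change at 14 d differed between the cell types for 7 of the 10 genes, each with a lower change in macrophages than in monocytes, where 36.8% of all genes differed (16.9% higher and 19.9% lower). The differences in log2 fold change were -2.59 ± 0.45 (SE) for Gclm (q = 0.000145), -2.27 ± 0.48 for Srxn1 (q = 0.000986), -2.24 ± 0.41 for Txnrd1 (q = 0.000259) and -2.15 ± 0.22 for Prdx1 (q = 2.63e-07). These 4 were called under every alternative. Gsr (-1.54), Gclc (-1.22) and Nfe2l2 (-0.93) were called on the TMM scale over all 22 samples (q = 0.0259, 0.0226 and 0.00264) and under none of 4 other scalings, where Nfe2l2 was at -0.59 with each cell type's own factors and -0.07 with factors from abundant genes alone. Over 33 alternatives Gsr was called in 25, Gclc in 24 and Nfe2l2 in 25. They were also lost without 1 sample, Gsr without macrophage 14 d replicate 3 (q = 0.0739), Gclc without macrophage 14 d replicate 2 or monocyte 14 d replicate 4 (q = 0.0623 and 0.0536) and Nfe2l2 without monocyte 14 d replicate 4 (q = 0.0613). Slc7a11, which rose in both cell types, had a difference of -0.50 ± 0.41 (q = 0.334), and Nqo1 one of 0.91 ± 0.67 (q = 0.287), which with factors from abundant genes alone was 1.75 and called (q = 0.0475). At 3 d the difference was called for Gclm alone (-1.53 ± 0.45 (SE), q = 0.0220, with 18.7% of all genes called, 3.51% higher and 15.2% lower), and the call was lost without macrophage 3 d replicate 3 (log2 difference -1.28, q = 0.0591).

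**Figure D3:**
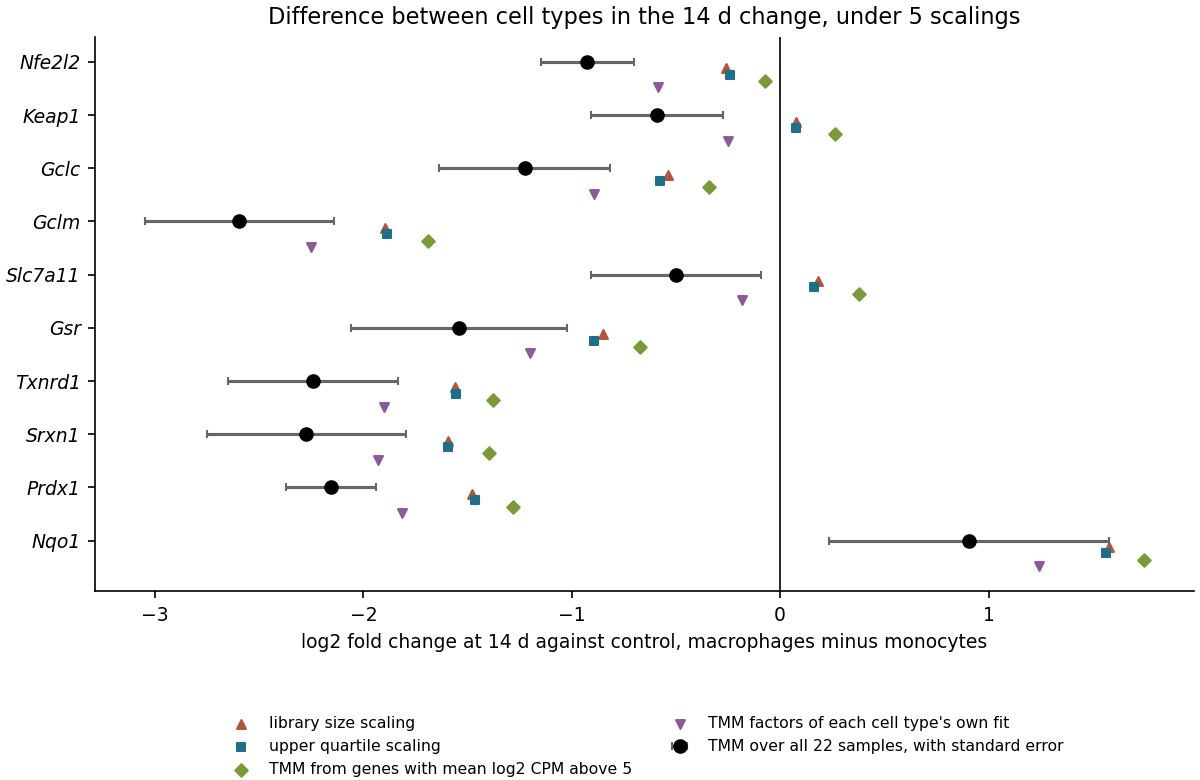
Change at 14 d against control in macrophages minus that in monocytes for each gene (log2, horizontal axis), with the standard error for the TMM scaling over all 22 samples and the values under 4 other scalings as coloured symbols. Gclm, Txnrd1, Srxn1 and Prdx1 lie below −1 under all 5 scalings, while Keap1 and Slc7a11 change sign between scalings.

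Between the cell types directly, 4 genes were called at 3 d, all higher in macrophages (Gclm by 2.07, Gclc by 2.40, Srxn1 by 1.5 and Txnrd1 by 1.3 on the log2 scale, with 63.1% of all genes called, 20.4% higher and 42.7% lower). At 14 d all 10 were called (3 higher, 7 lower, with 63.7% of all genes called, 40.4% higher and 23.3% lower), but 5 were called under library size scaling and 5 with factors from abundant genes alone. Keap1 changed sign in both (0.31 and 0.24), and Txnrd1 (0.07) and Srxn1 (0.01) did under library size scaling. On the common scale of the 22 samples the levels of Gclm ran from 37.9 CPM in 3 d macrophages down to 3.08 CPM in control monocytes, and the neighbours in that order without overlap were 14 d macrophages over 14 d monocytes and 3 d over control monocytes. Prdx1 was highest in 14 d monocytes (1962 CPM) and lowest in 14 d macrophages (378 CPM), and both ends stood clear of their neighbours. Nfe2l2 ran from 313 CPM in control monocytes to 61.4 CPM in 14 d macrophages, with a step clear of overlap at the low end alone. Srxn1 and Slc7a11 were highest in 14 d monocytes (69.8 and 92.1 CPM), where each overlapped the macrophage group next to it. Txnrd1 was at 144 to 146 CPM in control macrophages, 14 d monocytes and 3 d macrophages and at 58.5 to 69.9 CPM in the other groups, and the 14 d monocyte samples (70.9 to 207 CPM) overlapped each of the other groups. Keap1 spanned the narrowest range by ratio, from 35.7 CPM in 14 d macrophages to 65.5 CPM in control monocytes. For Nqo1 and Gsr every pair of neighbours overlapped.

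The other genes of the pathway, 59 in 6 lists by role, all passed the filter. In 14 d monocytes 6 rose and 3 fell against control, where 3.22% of all genes were higher and 5.34% lower (median log2 fold change 0.19, all genes 0.09). The 3 other scalings gave 5 to 7 higher and 2 to 3 lower. The heme, iron and detoxification list held 4 of the 6 among its 15 genes. Means here and below are over n = 4 samples of monocytes in each group, and of macrophages in control, with n = 3 at 14 d. Akr1b8, an aldo-keto reductase, rose from 0.449 ± 0.297 to 4.42 ± 2.61 CPM (SD), log2 fold change 3.26 ± 0.63 (SE), q = 0.00405. Esd, S-formylglutathione hydrolase, rose from 226 ± 12.9 to 453 ± 73.1 CPM (SD), log2 fold change 1.01 ± 0.14 (SE), q = 0.000306. Hmox1, heme oxygenase 1, rose from 232 ± 29.4 to 429 ± 85.2 CPM (SD), log2 fold change 0.89 ± 0.15 (SE), q = 0.00186, and Abcc1, an exporter of glutathione conjugates, had a log2 fold change of 0.68 (q = 0.0329). Glrx, glutaredoxin (0.89, q = 0.00167), and Txn1, thioredoxin (0.67, q = 0.0120), were the others that rose. Gss, glutathione synthetase, fell from 79.3 ± 6.54 to 37.4 ± 3.96 CPM (SD), log2 fold change -1.08 ± 0.13 (SE), q = 0.000161, and Mafk, a small MAF partner (-1.33, q = 0.000697), and Btrc, a subunit of a second ligase that marks NRF2 (-0.70, q = 0.0318), fell too. None of the 6 NADPH supply genes was called by edgeR (DESeq2 called 0, and 3 had an unadjusted p under 0.05). None of the 4 superoxide and catalase genes was either (DESeq2 0, unadjusted 3).

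At 3 d, 19 of the 59 fell and 4 rose in monocytes, where 14.4% of all genes were lower and 36.8% higher (median -0.46, all genes 0.22). The 3 other scalings gave 3 to 4 lower and 7 to 11 higher. Hmox1 fell from 232 ± 29.4 to 121 ± 12.5 CPM (SD), log2 fold change -0.94 ± 0.15 (SE), q = 0.000723, Gss had a log2 fold change of -1.25 and Mafk one of -1.23 (q = 0.000138 and 0.000732). Aox1, aldehyde oxidase 1, rose from 0.893 ± 0.359 to 7.79 ± 1.64 CPM (SD), log2 fold change 3.12 ± 0.40 (SE), q = 0.000301, and Sod3, the extracellular superoxide dismutase, had a log2 fold change of 2.68 (q = 0.00476). From 3 d to 14 d, 23 of the 59 rose and 2 fell, where 12% of all genes were higher and 34.5% lower (median 0.46, all genes -0.26). The 3 other scalings gave 4 to 7 higher and 4 to 5 lower, and moved the median of all genes to between -0.73 and -0.64. On the TMM scale Hmox1 (log2 fold change 1.82 ± 0.16 (SE), q = 2.08e-05) and Fth1, the ferritin heavy chain (log2 fold change 1.54 ± 0.27 (SE), q = 0.00129) were among the 10 that rose in the heme and detoxification list of 15 genes, where 2 to 5 were called higher under the 3 other scalings.

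In 14 d macrophages 13 of the 59 rose and 22 fell (median -0.28, all genes 0.18). Of all genes tested, 62.3% were called in this contrast, 39.4% higher and 22.9% lower. Among the 59, those with the largest rises were Osgin1, an oxidative stress response gene, from 0.706 ± 0.0928 to 10.5 ± 3.35 CPM (SD), log2 fold change 3.88 ± 0.35 (SE), q = 9.87e-07, Me1, malic enzyme 1, from 2.89 ± 1.01 to 26.1 ± 6.66 CPM (SD), log2 fold change 3.18 ± 0.29 (SE), q = 1.02e-06, and Aox1, with a log2 fold change of 3.01 (q = 0.00131). Gss rose here, from 22.1 ± 2.92 to 77.0 ± 23.8 CPM (SD), log2 fold change 1.80 ± 0.19 (SE), q = 3.68e-06, while it fell in 14 d monocytes (difference in change 2.55 ± 0.26, q = 2.63e-07), and Ephx1, microsomal epoxide hydrolase, had a log2 fold change of 1.79 (q = 1.46e-05). Of the 9 thioredoxin and peroxiredoxin genes 7 fell, among them Txnip (-1.39, q = 0.000138), Txn1 (-0.97, q = 0.000315) and Prdx5 (-0.83, q = 0.000452). Of the 11 regulators 5 fell and 1 rose, with Maff at -1.48 (q = 2.44e-06) and Bach1, a repressor at antioxidant response elements, at -0.95 (q = 0.000621). Gstm1, a glutathione transferase, fell from 268 ± 18.1 to 98.8 ± 23.8 CPM (SD), log2 fold change -1.44 ± 0.23 (SE), q = 9.10e-05. Under the 3 other scalings 19 to 21 of the 59 were higher and 6 to 11 lower.

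**Figure D4:**
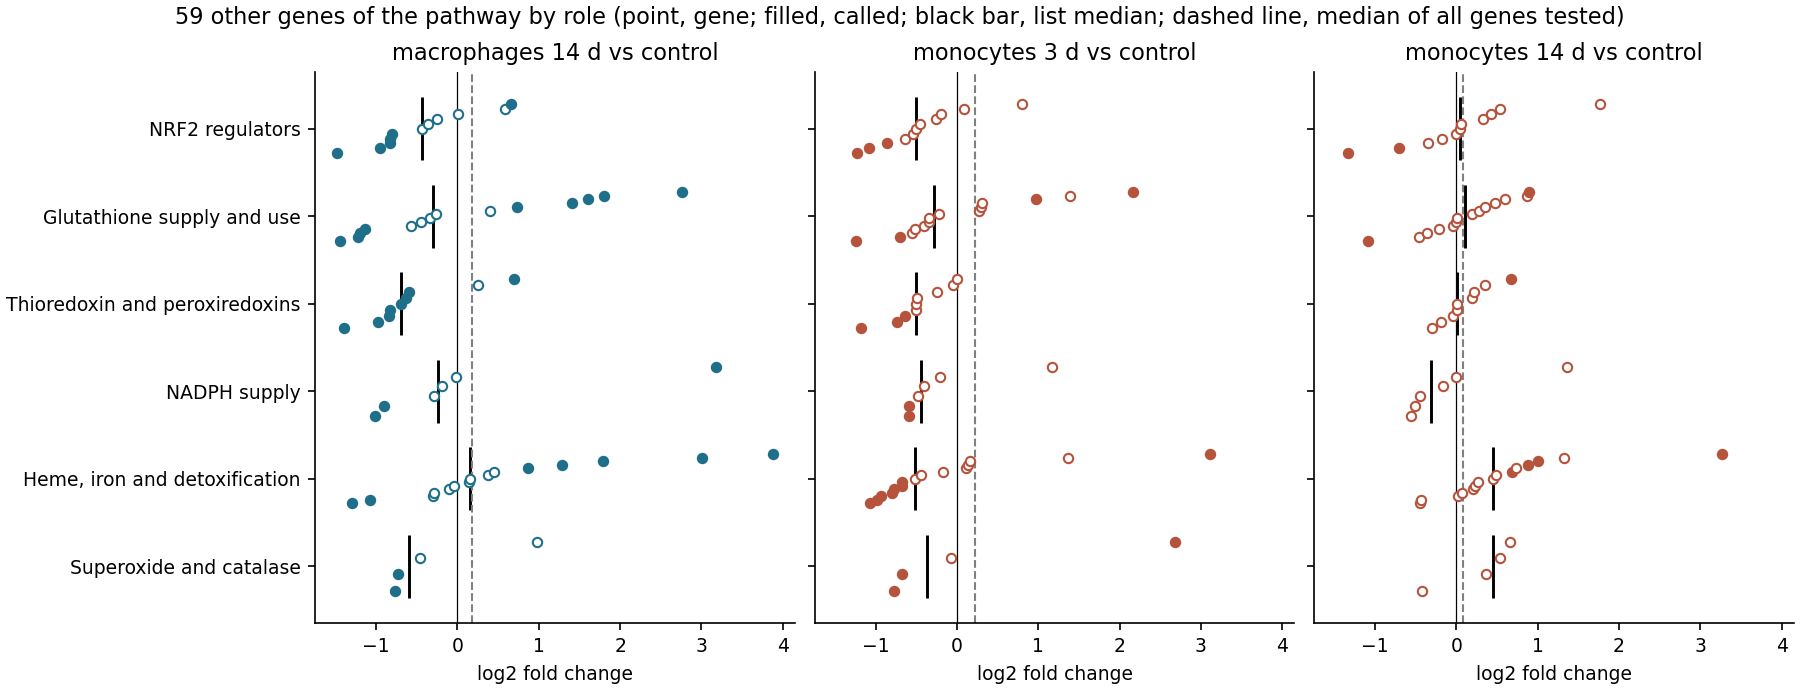
Log2 fold change (horizontal axis) of the 59 other genes of the pathway by role in 14 d macrophages, 3 d monocytes and 14 d monocytes, each against control, with filled points where called, a black bar at the median of each list and a dashed line at the median of all genes tested. The thioredoxin and peroxiredoxin list has its median at -0.70 in 14 d macrophages and at 0.01 in 14 d monocytes.

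For each of the 10 genes the non-member most like it over the 22 samples, by Pearson correlation of log2 CPM after the mean of each cell type was removed and over 8617 genes, was noted as a description. Nfe2l2 was nearest to Wsb1 (r = 0.971, and 0.987 within the 10 macrophage and 0.963 within the 12 monocyte samples). Gsr was nearest to Tysnd1 (0.960), Prdx1 to Dynlrb1 (0.959) and Slc7a11 to Mmp14, a membrane-bound matrix metalloproteinase (0.889). For Gclm the nearest gene was H6pd, which supplies NADPH in the endoplasmic reticulum (0.891), at 0.926 within monocytes and 0.210 within macrophages. The samples of a group share their treatment and the points share library scaling, so no test was made of these values.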

How the data were processed

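RNA of sorted alveolar macrophages and Ly6Chi monocytes was sequenced in 22 samples. The authors deposited raw read counts per Ensembl gene in 1 table per cell type, from mRNA selected with oligo(dT) and sequenced in pairs. Their processing notes name STAR 2.7.2c and 2.7.3a, featureCounts 1.6.3, DESeq2 1.26.0 and 1.28.1 and the builds GRCm38 and mm10, without order or role, and the use of strand is not given in the sources used here. There are 31134 genes for macrophages, each with at least 6 counts in some sample, and 55421 for monocytes, of which 6505 have no count, so the tables were filtered differently before deposit.

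Genes were filtered with filterByExpr, scaled by TMM (trimmed mean of M values) and tested two-sided with the quasi-likelihood test of edgeR 4.0.16 (R 4.3.3), with robust dispersion, in 1 fit per cell type over 3 groups and 1 over all 22 samples for contrasts between cell types. P-values were adjusted by Benjamini-Hochberg over all genes tested (q), and calls needed q under 0.05 and a fold over 1.5, the limits of the study's methods. Standard errors were taken from the log2 fold change and the F statistic. CPM values carry no prior count, and per kb values divide by the union of exons. Gene symbols matched 31047 and 55154 genes. Alternatives were DESeq2 1.42.0, 3 other scalings (library size, upper quartile, and TMM factors from abundant genes, those with a mean log2 CPM above 5), other filters, the groups compared alone, a replicate block, non-robust dispersion and leaving out each sample. No 2 samples of the same group agreed within sampling noise (chi-square per gene at least 9.79 over 30 pairs), and pairs across groups were not checked. The scripts were tested on simulated counts. The depth per sample given above limits genes of low count such as Nqo1.

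The 10 genes and the lists of pathway genes and markers were chosen with earlier results of these data known. Named pathway genes are the called ones with the largest changes in their role list and contrast, at most 4 per list, and the most similar gene of each member is the one of highest Pearson correlation among genes with a mean log2 CPM above 3. Promoter sequences are from RefSeq (GRCm38.p6).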

Additional observations from a re-analysis of the deposited data

Results flagged for a closer look

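Among the 40 groups of 4 samples (10 genes in 4 groups) 3 held a sample far from the other 3, where chance marks about 1 in 20 groups. Prdx1 was at 1266 CPM in replicate 2 of the control macrophages, Nfe2l2 at 211 CPM in replicate 3 of the control monocytes and Slc7a11 at 27.8 CPM in replicate 4 of the control monocytes.

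The change against control differed between the cell types in 8 tests of the difference itself (edgeR, joint fit). At 3 d this was Gclm, with a difference of -1.53 (log2, macrophages minus monocytes). At 14 d it was Gclm (-2.59), Srxn1 (-2.27), Txnrd1 (-2.24), Prdx1 (-2.15), Gsr (-1.54), Gclc (-1.22) and Nfe2l2 (-0.93). The last 3 were not called under the other scalings given above.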

How the results depend on the processing

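Of 1377 values of called genes of the set under an alternative, 1260 kept the call and its direction, 113 lost the call and 4 changed sign, all 4 at 14 d between the cell types (Keap1 0.31, Txnrd1 0.0668 and Srxn1 0.0144 scaled to library size, Keap1 0.24 with factors from abundant genes). Of 1492 values of genes not called, 36 gained a call. The cause of each change below was not tested, save that a stricter filter tests fewer genes and thinning leaves fewer counts.

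Members called under library size scaling were 3 in macrophages 14 d against 3 d, 4 in monocytes 14 d against 3 d, 5 between the cell types at 14 d and 4 for the difference in change at 14 d. The upper quartile gave 4 in monocytes 14 d against 3 d and 4 for the difference at 14 d. Factors from abundant genes gave 4 and, between the cell types at 14 d, 5. The filter at a mean log2 CPM above 1 gave 3 in macrophages 14 d against 3 d, 1 and 4 in monocytes at 3 d and from 3 d to 14 d, 5 between the cell types at 14 d and 4 for the difference at 14 d, and no filter gave 4 in monocytes at 3 d. The difference at 3 d was called for 2 members by DESeq2 and 2 with each cell type's own factors, and that at 14 d for 4 with those factors and 4 after thinning all samples to the lowest total. The own factors and the thinning were chosen after seeing the data.

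All genes called in macrophages at 3 d numbered 763 by DESeq2. The stricter filter gave 5018 and 4236 in macrophages at 14 d against control and 3 d, 1468 and 1557 in monocytes at 3 d and from 3 d to 14 d, 7586, 7050 and 7447 between the cell types in control, at 3 d and at 14 d, and 1211 and 3736 for the differences at 3 d and 14 d. No filter gave 19592 and 16664 in monocytes at 3 d and from 3 d to 14 d. Thinning gave 7560 and 6729 in macrophages at 14 d against control and 3 d, and 2153 and 5324 for the differences. Of all genes called in macrophages at 14 d against control, the share higher rose with the scaling, from 8258 of 13051 to 10430 of 11665 with factors from abundant genes, and likewise from 7611 of 11806 to 9627 of 10729 against 3 d, from 8215 of 11438 to 9871 of 10310 in monocytes at 3 d, from 10777 of 17006 to 16557 of 18899 between the cell types at 14 d (library size) and from 4511 of 9829 to 8002 of 9033 for the difference at 14 d, while it fell from 2677 of 10395 to 429 of 10016 in monocytes from 3 d to 14 d. By library size it went to 8420 of 11834 from 6542 of 11787 between the cell types in control (upper quartile 5451 of 12448), to 873 of 1795 from 720 of 1914 in monocytes at 14 d and to 412 of 5730 from 936 of 4995 for the difference at 3 d.

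With 1 sample left out, members called ranged over 3 to 5 in monocytes at 14 d (lowest without 14 d replicate 3), 4 to 7 from 3 d to 14 d (lowest without 3 d replicate 2 or 14 d replicate 4) and 1 to 2 for the difference at 3 d (highest without control monocyte replicate 3). All genes called ranged over 77 to 1476 in macrophages at 3 d (lowest without 3 d replicate 1, highest without 3 d replicate 2), 1158 to 1904 in monocytes at 14 d (lowest without 14 d replicate 3) and 2272 to 5370 for the difference at 3 d (lowest without macrophage 3 d replicate 3).

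The labels number replicates within each group and do not say whether a shared number pairs samples. The column numbers of the macrophage counts have gaps among the injured samples, so a shared replicate number may not mark the same position there. The check by number and the replicate block thus cannot settle pairing in macrophages. Between control and 14 d monocytes, same-numbered deviations correlated at a mean of 0.28 (0.0892 to 0.521). Different-numbered ones there had a mean of -0.0929 (-0.456 to 0.290). In the other pairs of groups the same-numbered means were -0.0612 to 0.0723. The main fits took samples as unpaired. With a replicate block the members called were 4 in monocytes at 14 d (Txnrd1 was lost), 5 from 3 d to 14 d (Gclm and Gsr lost), 9 between the cell types at 14 d and 6 for the difference at 14 d, and 133 of all genes were called in macrophages at 3 d.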
